A study of Mus musculus with 12 samples.

Results

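The 10 CXC chemokines Cxcl1, Cxcl2, Cxcl5, Cxcl9, Cxcl10, Cxcl12, Cxcl13, Cxcl14, Cxcl15 and Cxcl16 were taken from the 40760 genes of the deposited tables by their gene symbols, and all 10 passed the filter on low counts that left 17418 genes for testing. Expression was measured by bulk RNA-seq in cells sorted from mouse lung by flow cytometry for CD140a, the surface protein encoded by Pdgfra, a receptor carried by many lung fibroblasts. The 12 libraries fell into 4 groups of 3, made of WT and Pear1-/- mice that were given either vehicle or bleo. The mice were male, on a C57BL/6 background and 8 to 12 weeks old per the study's methods, and bleo stands for bleomycin given into the airways, an injury that leads to lung fibrosis. Pear1-/- mice carried a germline knockout-first (tm1a) allele in every cell, in which a cassette sits in an intron of Pear1, so the genotype was not limited to the sorted cells. The number of mice behind a library, and the dose and the day of harvest for these libraries, are not given in the sources used here, and p-values therefore measure the spread between these libraries, which may be technical in part.

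Between 6702948 and 10447101 reads per library were counted on genes, and a floor of 3 counts per library, which covers counting error only, lay between 0.287 and 0.448 CPM (read counts scaled to a common library total). Pear1 itself had 546.5 ± 28.8 normalized counts in WT vehicle and 519.7 ± 24.0 in Pear1-/- vehicle (SD, n = 3), a log2 difference of -0.08 ± 0.07 (standard error, SE; adjusted p = 0.470), so its gene-level count did not separate the vehicle libraries by label. In the bleo groups it went against the label, at 254 ± 13.99 in WT and 357 ± 14.2 in Pear1-/- (log2 difference 0.48 ± 0.08, adjusted p = 0.00012; interaction 0.56 ± 0.11, adjusted p = 0.000849). The table cannot separate reads before and after the cassette, so Pear1 could not check the genotype, and WT and Pear1-/- stand throughout, in every direction given, for the libraries labelled so. WT vehicle replicate 2 stood apart from its group. The chi-square between the counts of a pair of libraries, divided by its degrees of freedom and near 1 where a pair differs by sampling noise, was 25.2 and 26.0 between it and WT vehicle replicates 1 and 3, but 1.81, 2.29 and 2.92 between it and the 3 libraries labelled Pear1-/- vehicle, and 1.68 between WT vehicle replicates 1 and 3. Groups were kept as labelled, and values without this library are given beside those results on the chemokines that rest on it. Markers of the sorted cells were present in every library, but so were markers of other cells: Pdgfra had 4195 to 4802 (WT) and 4125 to 4203 (Pear1-/-) normalized counts after vehicle and 1338 to 1394 (WT) and 2369.9 to 2403 (Pear1-/-) after bleo. Ptprc, which encodes the leukocyte protein CD45, had 3009.99 to 3855 (WT) and 3519.5 to 4016 (Pear1-/-) after vehicle and 7542 to 7727 (WT) and 3241 to 3448 (Pear1-/-) after bleo. In bulk RNA, fewer cells of a type and less RNA per cell cannot be told apart.

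CXC chemokines are small secreted proteins that direct the migration of leukocytes through G protein-coupled receptors, and they are named for a pair of cysteines held apart by another residue near the start of the mature protein. Members with the residues glutamate, leucine and arginine (ELR) just before these cysteines attract neutrophils through Cxcr2, and most members without them attract lymphocytes, dendritic cells or progenitors. NF-kappaB drives many of the first kind after injury or infection, interferons drive Cxcl9 and Cxcl10, and Cxcl12, Cxcl13 and Cxcl14 are known for more constant production by stromal or epithelial cells.

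The coding sequence around the paired cysteines is shown because it divides the 10 genes into these classes. Each stretch of 30 bases was read from the GENCODE M21 transcripts of GRCm38, with capitals for the codons of cysteine, any residue and cysteine, and also for the preceding ELR codons where these are present.
Cxcl1: aatGAGCTGCGCTGTCAGTGCctgcagacc
Cxcl2: agtGAACTGCGCTGTCAATGCctgaagacc
Cxcl5: acgGAGCTGCGTTGTGTTTGCttaaccgta
Cxcl15: caaGAGCTACGATGTCTGTGTattcaggaa
Cxcl9: aggaatgcacgaTGCTCCTGCatcagcacc
Cxcl10: aggacggtccgcTGCAACTGCatccatatc
Cxcl12: ctgagctaccgaTGCCCCTGCcggttcttc
Cxcl13: acaaacttaaaaTGTAGGTGTtctggagtg
Cxcl14: gacgggtccaagTGTAAGTGTtcccggaag
Cxcl16: gtcgctggaagtTGTTCTTGTgatcgtacc

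Cxcl1, Cxcl2, Cxcl5 and Cxcl15 encoded ELR directly before the first cysteine, and the other 6 genes did not. The first stretch lies at chr5:90891484-90891513 in an exon of Cxcl1 on the plus strand, and those of Cxcl2 and Cxcl5 at chr5:90904130-90904159 and chr5:90759715-90759744. The stretch of Cxcl14 is joined from 2 exons, and the other 9 lie within a single exon each. All 4 ELR genes lie close together on chromosome 5, from the start of Cxcl5 at 90759360 to the end of Cxcl2 at 90905938, and Cxcl9 (92321347 to 92328079) and Cxcl10 (92346638 to 92348889) are neighbours further along, both on the minus strand. Cxcl13 is on the same chromosome, Cxcl12 on chromosome 6, Cxcl14 on chromosome 13 and Cxcl16 on chromosome 11.

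Promoters were matched in the RefSeq table (GRCm38.p6) for 8 of the 10 genes, not for Cxcl5 and Cxcl16. The 250 bases before the RefSeq start of a pair of NF-kappaB-driven ELR genes and of the pair of interferon-driven genes are printed, since each pair is described together below. Capitals mark matches, on either strand, to GGGA followed by any 4 bases and CC (a kappaB pattern), GAAA followed by any 2 bases and GAAA (the interferon-stimulated response element, ISRE), TTCNNNGAA (GAS, the interferon-gamma-activated site) or TATAAA. The windows are chr5:90890995-90891244 (plus strand) for Cxcl1, chr5:90903649-90903898 (plus) for Cxcl2, chr5:92328080-92328329 (minus) for Cxcl9 and chr5:92348890-92349139 (minus) for Cxcl10.
Cxcl1: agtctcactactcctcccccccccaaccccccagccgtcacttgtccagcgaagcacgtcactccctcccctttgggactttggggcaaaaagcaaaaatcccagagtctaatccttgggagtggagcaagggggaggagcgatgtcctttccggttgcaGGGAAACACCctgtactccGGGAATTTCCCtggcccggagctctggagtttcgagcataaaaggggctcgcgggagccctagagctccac
Cxcl2: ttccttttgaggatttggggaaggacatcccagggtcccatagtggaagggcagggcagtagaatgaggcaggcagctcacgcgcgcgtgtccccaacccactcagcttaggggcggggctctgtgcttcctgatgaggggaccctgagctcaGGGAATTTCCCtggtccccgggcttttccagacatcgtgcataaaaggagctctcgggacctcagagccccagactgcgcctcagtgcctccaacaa
Cxcl9: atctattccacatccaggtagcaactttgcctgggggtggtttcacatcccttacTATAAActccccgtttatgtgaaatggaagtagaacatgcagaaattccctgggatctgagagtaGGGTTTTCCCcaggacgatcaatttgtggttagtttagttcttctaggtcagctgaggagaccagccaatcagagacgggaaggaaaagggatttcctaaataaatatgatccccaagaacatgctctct
Cxcl10: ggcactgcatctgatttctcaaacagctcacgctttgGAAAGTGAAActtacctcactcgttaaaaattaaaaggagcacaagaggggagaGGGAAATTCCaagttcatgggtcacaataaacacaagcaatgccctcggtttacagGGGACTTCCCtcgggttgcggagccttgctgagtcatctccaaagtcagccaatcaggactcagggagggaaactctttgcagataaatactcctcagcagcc

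Cxcl1 had 3 kappaB matches, of which 2 overlap on opposite strands between 71 and 61 bases before the start, and Cxcl2 had 2 that overlap in the same way between 97 and 87 bases before it. Cxcl10 had 2 kappaB matches and an ISRE match 213 to 204 bases before the start, and Cxcl9 had a kappaB match 130 to 121 bases before its start. Of all 32851 windows of this length in the table, 17.6% held the kappaB letters, 2.98% the ISRE, 7.02% GAS and 12.4% TATAAA. Among the 4 genes not printed, Cxcl13 held the kappaB letters and TATAAA, Cxcl14 the ISRE and GAS letters, Cxcl15 TATAAA and Cxcl12 none of these. A match describes the letters in a window and was not tested for binding.

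Levels between genes are compared per kilobase of exonic sequence, as normalized counts per kilobase. Cxcl2 was the most abundant of the 10 in all 4 groups, at 2984 ± 1096 (WT) and 4416 ± 189.8 (Pear1-/-) after vehicle and at 5601 ± 138 (WT) and 4084 ± 105 (Pear1-/-) after bleo. In WT vehicle the order below it was Cxcl1, Cxcl14, Cxcl10, Cxcl16, Cxcl12, Cxcl15, Cxcl13, Cxcl9 and Cxcl5, and the ranges of Cxcl2 and Cxcl1, of Cxcl14 and Cxcl10, of Cxcl16 and Cxcl12 and of Cxcl9 and Cxcl5 overlapped. In Pear1-/- vehicle Cxcl10 lay above Cxcl14 and Cxcl12 above Cxcl16 without overlap, while Cxcl2 and Cxcl1, and Cxcl9 and Cxcl5, again overlapped. WT bleo had another order, with Cxcl16 (2872 ± 1.64) and Cxcl10 (2444 ± 15.5) directly after Cxcl2, and Cxcl1 (1512 ± 36.8) below them, and there Cxcl9 and Cxcl15 were the neighbours whose ranges overlapped. Pear1-/- bleo kept Cxcl1 (1695 ± 36.7) in the place after Cxcl2, followed by Cxcl16 (1148 ± 12.3), Cxcl14 (1080.4 ± 39.8) and Cxcl10 (1001 ± 9.15). Cxcl5 was the lowest in every group, between 4.18 ± 0.886 in WT bleo and 22.4 ± 6.05 in Pear1-/- bleo.

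**Figure D1:**
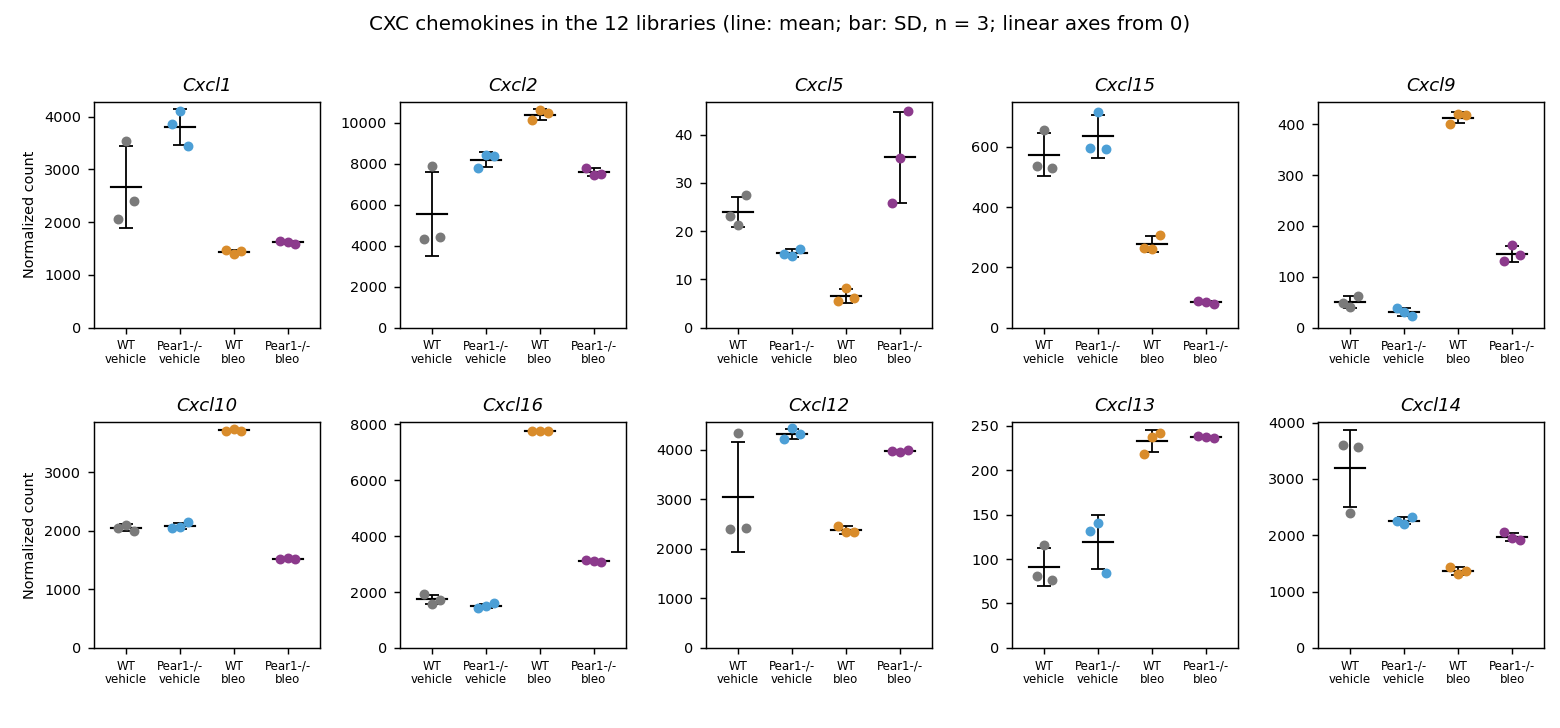
Normalized counts of the 10 CXC chemokines (linear y axes from 0, a scale for each gene) in the 4 groups on the x axis, with 1 point for each library, a line at the mean and a bar of 1 SD (n = 3). Cxcl16 lay between 7746 and 7753 in WT bleo and between 3064 and 3131 in Pear1-/- bleo, and the WT vehicle points of Cxcl1, Cxcl2, Cxcl12 and Cxcl14 show replicate 2 away from the other two.

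The summed level per kilobase of the 10 genes was 10325 ± 1707 (WT) and 12598 ± 409 (Pear1-/-) after vehicle, and 13990.2 ± 88.8 (WT) and 9883 ± 171 (Pear1-/-) after bleo. Cxcl1 made up 26.7% ± 3.37 of that sum in WT vehicle and 31.6% ± 2.13 in Pear1-/- vehicle, against 10.8% ± 0.321 in WT bleo and 17.2% ± 0.213 in Pear1-/- bleo. Cxcl16 went the other way, from 6.39% ± 1.49 and 4.44% ± 0.285 in the vehicle groups to 20.5% ± 0.137 in WT bleo and 11.6% ± 0.0926 in Pear1-/- bleo. The neutrophil-attracting pair Cxcl1 and Cxcl2 together held 55.0% ± 8.58 (WT) and 66.7% ± 1.04 (Pear1-/-) of the sum after vehicle and 50.8% ± 0.435 (WT) and 58.5% ± 0.324 (Pear1-/-) after bleo, and Cxcl16 and Cxcl10 took larger shares in WT bleo than in the other groups.

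**Figure D2:**
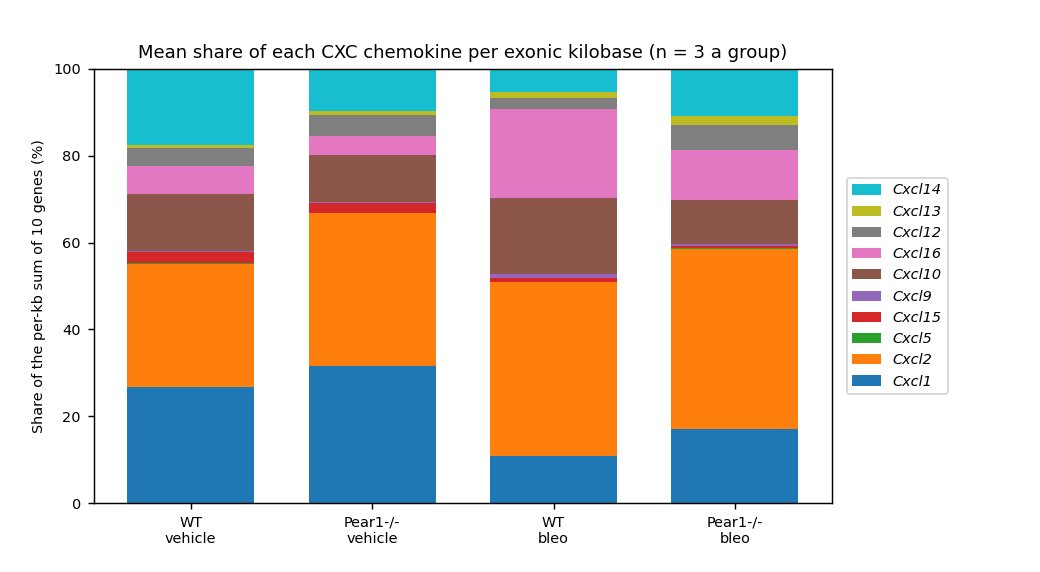
Mean share (%) of each CXC chemokine in the summed normalized counts per exonic kilobase of the 10 genes (y axis) in each group (x axis, n = 3). Cxcl2 is the largest part of every bar, and Cxcl16 takes 20.5% in WT bleo against 6.39% in WT vehicle.

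The comparison of bleo with vehicle asks how expression changed after injury in each genotype, and a gene was called at an adjusted p under 0.05 in edgeR's quasi-likelihood test with Benjamini-Hochberg adjustment over all 17418 genes. In WT, 9 of the 10 chemokines were called, against 68.0% of all genes tested. Cxcl2, Cxcl9, Cxcl10, Cxcl13 and Cxcl16 rose (31.4% of all genes did), and Cxcl1, Cxcl5, Cxcl14 and Cxcl15 fell (36.6%). In Pear1-/-, 7 were called, against 62.3% of all genes. Cxcl5, Cxcl9, Cxcl13 and Cxcl16 rose (28.9% of all genes) and Cxcl1, Cxcl10 and Cxcl15 fell (33.4%). Without WT vehicle replicate 2, 4 rose and 6 fell in Pear1-/-, beside 5656 and 8212 of the 20405 genes then tested. Most genes were called in these comparisons, so the counts by themselves say little of the chemokines, and the median log2 fold change of the 10 was 0.26 in WT (-0.07 over all genes) and -0.11 in Pear1-/- (-0.05 over all genes). Without WT vehicle replicate 2 the median in WT was 0.50 (-0.21 over all genes). With the study's added criterion of a fold change above 2, 6 were called in WT (33.9% of all genes) and 5 in Pear1-/- (27.8%).

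Between the bleo groups, the comparison of genotypes called 8 of the 10 chemokines, against 46.0% of all genes. Cxcl2, Cxcl9, Cxcl10, Cxcl15 and Cxcl16 were lower in Pear1-/- bleo than in WT bleo (23.9% of all genes were), and Cxcl5, Cxcl12 and Cxcl14 were higher (22.1%). The median of the 10 was -0.23, beside -0.01 over all genes, and 5 also passed the fold change above 2 (15.0% of all genes). The interaction, which is the bleo effect in Pear1-/- minus that in WT, was called for 7 of the 10, against 37.0% of all genes: it was positive for Cxcl5 and Cxcl14 (17.9% of all genes) and negative for Cxcl2, Cxcl9, Cxcl10, Cxcl15 and Cxcl16 (19.1%), and 6 of the 7 also passed the fold change above 2 (15.7%). Its median was -0.60 over the 10 and -0.0012 over all genes. Without WT vehicle replicate 2 the interaction was positive for 2 and negative for 8, beside 46.4% called among the 20405 genes then tested. Its median was then -0.73, beside 0.0086 over all genes. The 2 bleo comparisons and the interaction share libraries, so these counts are not independent of each other.

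**Figure D3:**
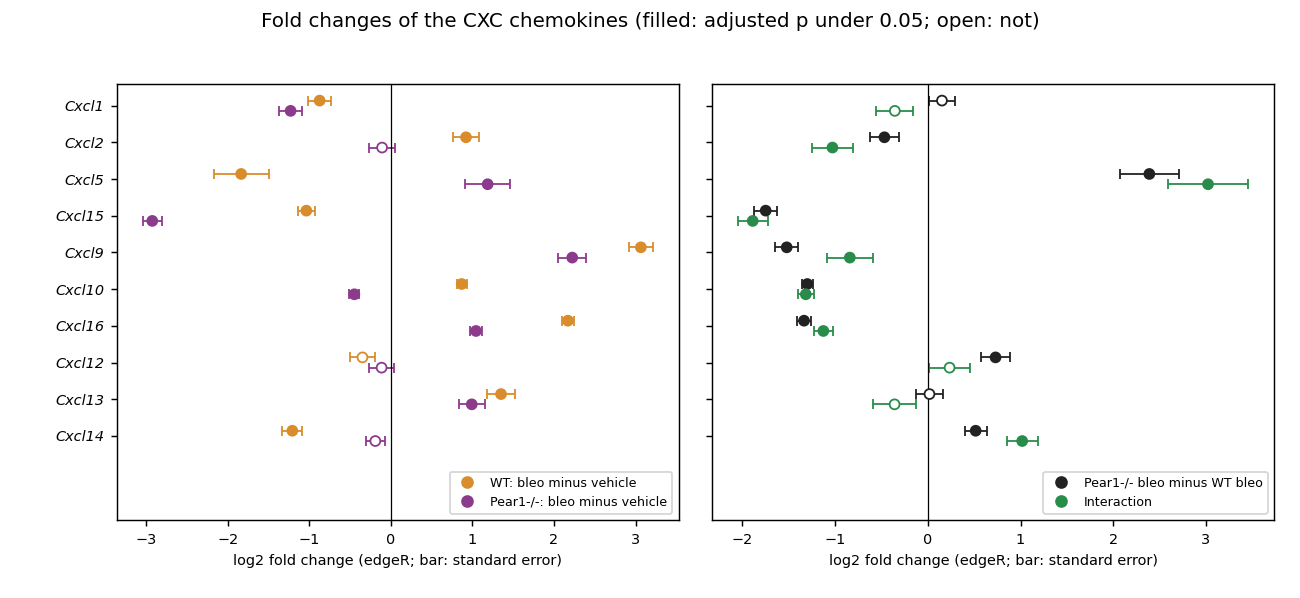
Log2 fold changes of the 10 CXC chemokines (x axes) by gene (y axis) with bars of 1 standard error from edgeR, for bleo minus vehicle in each genotype on the left, and for Pear1-/- bleo minus WT bleo and the interaction on the right; filled points have an adjusted p under 0.05. Cxcl5 and Cxcl10 lie on opposite sides of 0 in the 2 genotypes on the left, and Cxcl16, Cxcl15, Cxcl9 and Cxcl10 lie below 0 in both comparisons on the right.

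Marker lists of other cells moved with the same comparisons, and their part in the chemokine results was not tested. The summed normalized counts of 12 macrophage and monocyte markers lay between 22126 and 25451 (WT) and between 24849.9 and 25896 (Pear1-/-) after vehicle, and between 199731 and 200729 (WT) and 78696 and 80847 (Pear1-/-) after bleo. Of these, 11 were higher in WT bleo than in WT vehicle (31.4% of all genes were). The same number were lower in Pear1-/- bleo than in WT bleo (23.9% of all genes). The sum of 10 epithelial markers was 43358 to 62092 and 58843 to 68247 in the vehicle groups, 16424 to 16676 in WT bleo and 6928 to 7067 in Pear1-/- bleo. Neutrophil markers (7 genes) summed to 5029 to 16518 in WT vehicle, where replicate 2 was the highest, and to 15579 to 19321 in Pear1-/- vehicle. After bleo they summed to 1630.2 to 1746 (WT) and 2577 to 2659 (Pear1-/-). The 12 mesenchymal markers summed to 156502 to 175873, 174323 to 180831, 114173 to 115326 and 292298 to 301914 in the same order of groups. The collagen genes Col1a1, Col1a2 and Col3a1 made up most of that sum after bleo and, split off after the values were seen, summed to 88744 to 92008 (WT) and 87459 to 93789.9 (Pear1-/-) after vehicle and 97321 to 98448 (WT) and 272299 to 281728 (Pear1-/-) after bleo. The other 9 summed to 67758 to 85867 (WT) and 86393 to 87041 (Pear1-/-) after vehicle and 16609 to 16877 (WT) and 19878 to 20185 (Pear1-/-) after bleo. With bleo, 2 of the 12 mesenchymal markers rose and 10 fell in WT (31.4% and 36.6% of all genes). In Pear1-/-, 4 rose and 8 fell (28.9% and 33.4%). Each of these lists had every gene above the floor in at least 1 library of each group, other than Ly6g in WT bleo. T and NK cell markers (6 genes) summed to 1085 to 1665, 1718 to 1886, 671 to 714 and 461 to 474, and those of endothelium (5 genes) to 2662 to 3362, 3231 to 3479, 1462 to 1586 and 1588 to 1702.

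Cxcl1 is an ELR ligand of Cxcr2 that recruits neutrophils. Its normalized counts were 2059, 3538 and 2393 in WT vehicle and 3852, 4115 and 3439.9 in Pear1-/- vehicle. They were 1474, 1404 and 1445 in WT bleo and 1644, 1627 and 1577 in Pear1-/- bleo. Every bleo library was below every vehicle library, and the bleo groups did not overlap. The log2 fold change was -0.87 ± 0.14 in WT (adjusted p = 6.18e-05) and -1.23 ± 0.14 in Pear1-/- (adjusted p = 2.62e-06). Without WT vehicle replicate 2 the change in WT was -0.55. The difference of 0.15 ± 0.14 between the bleo groups had an adjusted p of 0.401, which fell to 0.0396 without that library and to 0.000144 in a fit of the 2 bleo groups alone. Its interaction was -0.36 ± 0.20 (adjusted p = 0.176), and -0.70 (4.02e-09) without WT vehicle replicate 2.

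Cxcl2, a second ELR ligand of Cxcr2 from the same gene cluster, did not follow Cxcl1 after bleo. WT vehicle had 4311, 7900.5 and 4432 normalized counts, and Pear1-/- vehicle 7803, 8437 and 8387. Bleo libraries had 10123, 10615 and 10499.5 in WT and 7816, 7453 and 7508 in Pear1-/-. All WT bleo libraries were above all others, while Pear1-/- bleo overlapped Pear1-/- vehicle. Cxcl2 rose in WT by 0.92 ± 0.16 on the log2 scale (adjusted p = 0.000123), and by 1.33 without WT vehicle replicate 2. In Pear1-/- the difference was -0.11 ± 0.16 (adjusted p = 0.569), and -0.13 with an adjusted p of 0.0103 without that WT library and -0.12 (0.0320) in a fit of both Pear1-/- groups alone. The interaction was -1.03 ± 0.23 (adjusted p = 0.00239), and -1.46 without the same library. Pear1-/- bleo was 0.47 ± 0.16 lower than WT bleo on the log2 scale (adjusted p = 0.0250), a call that was lost with DESeq2 (adjusted p = 0.0967), with limma (0.0816) and without any single bleo library (0.0685 to 0.0965).

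The neutrophil marker sum of the bleo groups was 0.190 times (WT) and 0.154 times (Pear1-/-) that of their vehicle groups, and 0.333 times in WT without WT vehicle replicate 2. The sum was lower after bleo, as Cxcl1 was, and went opposite to Cxcl2 in WT. With bleo, 5 of the 7 markers fell and 0 rose in WT, and 6 fell and 1 (Mmp8) rose in Pear1-/-. Among all genes, 36.6% fell in WT and 33.4% in Pear1-/-. Without WT vehicle replicate 2, 5 fell and 2 rose in WT. A list of 10 genes known to respond to tissue dissociation summed to 155307 to 175797 (WT) and 173840 to 186376 (Pear1-/-) after vehicle and to 154308 to 157548 (WT) and 147499 to 150602 (Pear1-/-) after bleo, and 2 of these genes rose and 5 fell with bleo in WT, near the 68.0% called among all genes. Their part in the values of Cxcl1 and Cxcl2 was not tested.

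Cxcl5, an ELR ligand of Cxcr2 that lung epithelial cells are known to make, had few reads, between 6 and 47 in any library. Its normalized counts were 23.0, 21.3 and 27.5 in WT and 15.2, 14.8 and 16.4 in Pear1-/- vehicle libraries. After bleo they were 5.51, 8.16 and 6.07 in WT and 25.8, 35.2 and 44.8 in Pear1-/-. No pair of groups compared here overlapped. The log2 fold change of Cxcl5 was -1.84 ± 0.34 in WT (adjusted p = 0.000193) and 1.19 ± 0.28 in Pear1-/- (adjusted p = 0.00172). The interaction of 3.02 ± 0.44 (adjusted p = 8.16e-05) was the largest in size among the 10 genes. Pear1-/- bleo was 2.39 ± 0.32 above WT bleo (adjusted p = 1.88e-05). The epithelial marker sum was lower in Pear1-/- bleo than in WT bleo, with 9 of 10 markers lower and 1 higher. Of the 12 mesenchymal markers 6 were higher, 1 was lower and 5 did not pass, with a median log2 difference of 0.38. Among all genes, 22.1% were higher and 23.9% lower. With bleo in Pear1-/-, where Cxcl5 rose, 4 mesenchymal markers rose and 8 fell. The part of either cell type in Cxcl5 was not tested.

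Cxcl15 (lungkine) is an ELR chemokine known from the epithelium of the mouse airways and alveoli. It had 537, 655 and 529 normalized counts in WT vehicle and 595, 717 and 594 in Pear1-/- vehicle, which overlapped. It had 265, 260.0 and 308 in WT bleo and 87.9, 83.4 and 78.2 in Pear1-/- bleo, and neither group overlapped another. The log2 fold change was -1.04 ± 0.11 in WT (adjusted p = 5.40e-07) and -2.93 ± 0.12 in Pear1-/- (adjusted p = 2.12e-11), and the interaction was -1.89 ± 0.16 (adjusted p = 5.71e-07). By the ratio of group means, Pear1-/- bleo had 0.299 times the Cxcl15 level of WT bleo and 0.424 times its epithelial marker sum, and Sftpc, the alveolar type 2 surfactant gene, had log2 fold changes of -1.22 ± 0.08 in WT and -3.45 ± 0.09 in Pear1-/- with bleo (adjusted p = 4.23e-09 and 2.20e-13). Of the 10 epithelial markers, 8 fell and 2 rose with bleo in WT (36.6% and 31.4% of all genes). In Pear1-/-, 9 fell and 1 rose (33.4% and 28.9%). Cdh1 went from a mean of 155 after vehicle to 288 after bleo in WT, and from 161 to 383 in Pear1-/-. Scgb1a1 (25294) and Sftpc (15048) held most of the mean sum of 50124 in WT vehicle. The part of these markers in the fall of Cxcl15 was not tested.

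Cxcl9 and Cxcl10 are interferon-inducible ligands of Cxcr3, which guides activated T cells and NK cells. Cxcl9 had 48.5, 39.6 and 61.8 normalized counts in WT and 38.8, 30.6 and 22.9 in Pear1-/- vehicle libraries. After bleo it had 401, 421 and 418 in WT and 131, 162 and 142 in Pear1-/-. Both bleo groups were above all vehicle libraries, with WT bleo the highest. It rose by 3.07 ± 0.15 on the log2 scale in WT (adjusted p = 1.16e-10), the largest rise among the 10 genes, and by 2.22 ± 0.17 in Pear1-/- (adjusted p = 3.20e-08). Pear1-/- bleo was 1.52 ± 0.13 lower than WT bleo (adjusted p = 1.38e-07). The interaction was -0.84 ± 0.24 (adjusted p = 0.0142), and this call was lost with library totals as the scaling (-0.69, adjusted p = 0.0579) and without Pear1-/- vehicle replicate 1 (-0.70, 0.0514).

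Cxcl10 had 2052, 2108 and 1993 normalized counts in WT vehicle and 2039.7, 2060.4 and 2148 in Pear1-/- vehicle, which overlapped. WT bleo had 3699, 3742 and 3703, above every vehicle library, and Pear1-/- bleo had 1515, 1538 and 1513, below every vehicle library. The log2 fold change was 0.87 ± 0.06 in WT (adjusted p = 6.35e-09) and -0.45 ± 0.06 in Pear1-/- (adjusted p = 1.27e-05), with an interaction of -1.32 ± 0.09 (adjusted p = 4.34e-08). Between the bleo groups it was 1.30 ± 0.06 lower in Pear1-/- (adjusted p = 3.53e-10). Cxcl10 shares 133 of its 1520 exonic bases with Art3 on the opposite strand, and the full-length cDNA and transposase kits used do not mark strand, so reads from the shared bases cannot be told apart. Art3 had 23.5 to 91.0 normalized counts in any library.

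Cxcl9 and Cxcl10 thus shared a direction in WT but not in Pear1-/-, although both were lower in Pear1-/- bleo than in WT bleo. By the ratio of group means, Pear1-/- bleo had 0.398 times the macrophage and monocyte marker sum of WT bleo, 0.351 times its Cxcl9 and 0.410 times its Cxcl10. The mean of that sum in Pear1-/- bleo was 3.14 times that in Pear1-/- vehicle, a comparison in which Cxcl10 fell. Whether leukocyte content had a part in either gene was not tested.

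Cxcl16 is made as a transmembrane protein that can be shed to attract cells with Cxcr6 and that also binds oxidized lipids on macrophages. WT vehicle had 1915, 1584 and 1708 normalized counts and Pear1-/- vehicle 1441, 1493 and 1590.1. WT bleo had 7753, 7753 and 7746, and Pear1-/- bleo 3131, 3099 and 3064. Both bleo groups were above every vehicle library and did not overlap each other. Cxcl16 rose by 2.17 ± 0.08 in WT (adjusted p = 2.42e-12) and by 1.04 ± 0.07 in Pear1-/- (adjusted p = 1.23e-08) on the log2 scale. The interaction was -1.13 ± 0.10 (adjusted p = 1.15e-06), and Pear1-/- bleo was 1.34 ± 0.07 lower than WT bleo (adjusted p = 1.89e-09). By the ratio of group means it had 0.400 times the level of WT bleo, beside 0.398 for the macrophage and monocyte marker sum, whose part was not tested. It shares 552 of 2699 exonic bases with Zmynd15 on the other strand, which had 179.9 to 227 normalized counts in the vehicle groups, 1372 to 1409.8 in WT bleo and 349 to 373 in Pear1-/- bleo, so reads from the shared bases cannot be told apart here either.

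**Figure D4:**
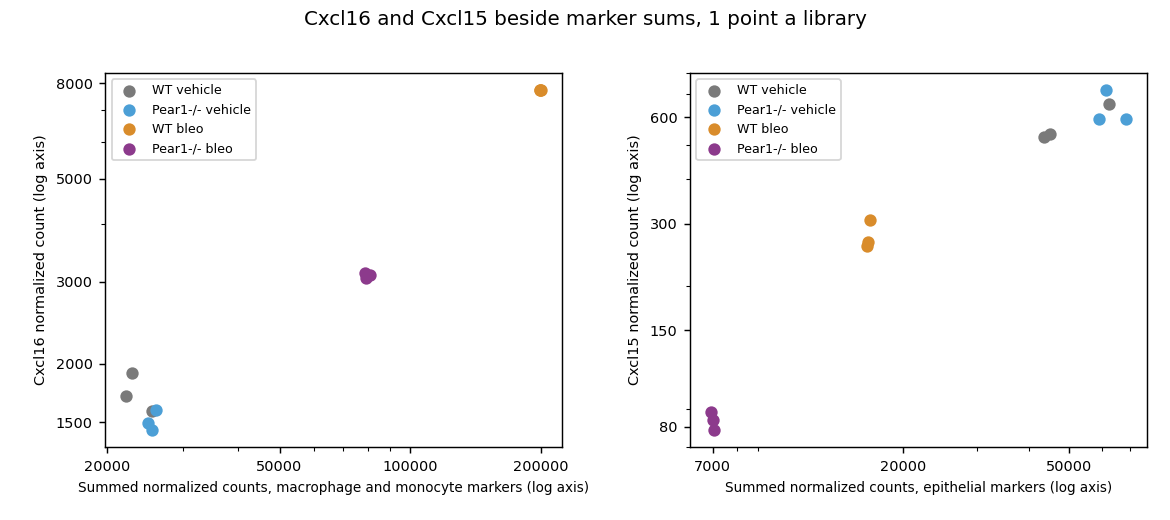
Normalized counts of Cxcl16 against the summed macrophage and monocyte markers (left) and of Cxcl15 against the summed epithelial markers (right), on log axes with 1 point for each of the 12 libraries coloured by group. WT bleo lies at the top right for Cxcl16, with marker sums of 199731 to 200729, and Pear1-/- bleo at the bottom left for Cxcl15, with sums of 6928 to 7067.

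Cxcl12 is the stromal ligand of Cxcr4 and Ackr3 that retains progenitors and lymphocytes. Its normalized counts were 2399, 4336 and 2430.4 in WT vehicle and 4221, 4432 and 4315 in Pear1-/- vehicle. They were 2463, 2332 and 2341 in WT bleo and 3979, 3964 and 4002 in Pear1-/- bleo. WT vehicle replicate 2 lay with the Pear1-/- libraries and the other WT vehicle libraries with WT bleo. Cxcl12 was higher in Pear1-/- bleo than in WT bleo by 0.73 ± 0.16 on the log2 scale (adjusted p = 0.00152). The bleo effect in WT was -0.35 ± 0.16 and did not pass (adjusted p = 0.0634). It passed with DESeq2 size factors in edgeR (-0.38, 0.0450), library totals (-0.42, 0.00781), no filter (-0.24, 0.0407) and without WT vehicle replicate 1 (-0.49, 0.0114) or 3 (-0.49, 0.0120), and turned to 0.055 (0.351) without WT vehicle replicate 2. In Pear1-/- it was -0.11 ± 0.16 (adjusted p = 0.544), and -0.13 (0.00975) without that library and -0.13 (0.0255) in a fit of both Pear1-/- groups alone. The interaction of 0.23 ± 0.22 (adjusted p = 0.437) also turned sign without it, to -0.19 (0.0257).

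Cxcl13 attracts B cells through Cxcr5 and is known from the stroma of lymphoid follicles. It had 81.3, 116 and 76.7 normalized counts in WT vehicle and 132, 141 and 84.0 in Pear1-/- vehicle, which overlapped. It had 219, 238 and 242 in WT bleo and 239, 237 and 236 in Pear1-/- bleo, above all vehicle libraries. It rose by 1.35 ± 0.17 on the log2 scale in WT (adjusted p = 4.20e-06) and by 0.99 ± 0.16 in Pear1-/- (adjusted p = 6.25e-05). The bleo groups overlapped and differed by 0.017 ± 0.15 (adjusted p = 0.947). The interaction of -0.36 ± 0.23 did not pass (adjusted p = 0.241), but was -0.66 (0.00413) without WT vehicle replicate 2 and -0.59 (0.0388) without Pear1-/- vehicle replicate 3. The sum of 5 B cell markers was 6108 to 6205 in WT bleo and 4411 to 4546 in Pear1-/- bleo.

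Cxcl14 is a chemokine of epithelia and fibroblasts that attracts monocytes and dendritic cells. Normalized counts were 3597, 2395 and 3573 in WT and 2258, 2204 and 2319 in Pear1-/- vehicle libraries. They were 1440.1, 1308 and 1357 after bleo in WT and 2056, 1950.4 and 1916 in Pear1-/-. Pear1-/- bleo lay between WT bleo and the vehicle groups, and no groups compared overlapped. Cxcl14 fell in WT by 1.21 ± 0.12 on the log2 scale (adjusted p = 4.35e-07). In Pear1-/- the difference was -0.19 ± 0.12 (adjusted p = 0.174), and -0.21 (0.000406) without WT vehicle replicate 2 and -0.20 (0.00200) in a fit of both Pear1-/- groups alone. The interaction was 1.02 ± 0.17 (adjusted p = 0.000274), and Pear1-/- bleo was 0.52 ± 0.12 higher than WT bleo (adjusted p = 0.00250). In that comparison 6 of 12 mesenchymal markers were higher and 1 lower, and 1 of 10 epithelial markers was higher and 9 lower. Among all genes, 22.1% were higher and 23.9% lower. With bleo in Pear1-/-, 4 of the mesenchymal markers rose and 8 fell. The part of either cell type in Cxcl14 was not tested.

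Between the vehicle groups, the comparison of genotypes without injury called 1 of the 10 chemokines, against 4.50% of all genes (0.855% higher and 3.65% lower in Pear1-/-). With the fold change above 2 it called 0 (2.36% of all genes), and 7 had an unadjusted p under 0.05 in edgeR. The share of all genes at that unadjusted threshold was not counted, so these 7 say little of the chemokines by themselves. Cxcl14 was 0.50 ± 0.12 lower in Pear1-/- vehicle (adjusted p = 0.0413), and its adjusted p was 0.117 with limma, 0.232 in a fit of the vehicle groups alone and 0.0577 to 0.195 without any single library other than WT vehicle replicate 2. With all 12 libraries the differences of Cxcl1 (0.51 ± 0.14, adjusted p = 0.0509), Cxcl2 (0.56 ± 0.16, 0.0537), Cxcl9 (-0.68 ± 0.21, 0.0598), Cxcl12 (0.50 ± 0.16, 0.0666) and Cxcl16 (-0.21 ± 0.07, 0.0812) did not pass. Cxcl1 and Cxcl2 passed it with library totals (0.0456 and 0.0413), no filter (9.16e-07 and 1.63e-09) and a replicate block (0.0470 for both), and Cxcl1 also with DESeq2 (0.0319). Cxcl9 passed with library totals (0.0371) and no filter (0.0348), Cxcl12 (1.18e-06) and Cxcl13 (0.47, 0.0206) with no filter, and Cxcl16 with library totals (0.0315). Without WT vehicle replicate 2, 8 of the 10 were called, beside 55.2% of the 20405 genes then tested. Cxcl1 (0.84, adjusted p = 7.56e-15), Cxcl2 (0.98, 1.75e-20), Cxcl12 (0.91, 1.21e-18), Cxcl13 (0.67, 0.000649) and Cxcl15 (0.32, 0.00132) were then higher in Pear1-/- vehicle, and Cxcl9 (-0.76, 0.00337), Cxcl14 (-0.60, 5.00e-12) and Cxcl16 (-0.20, 0.00418) lower. Cxcl5 (-0.64, 0.0977) and Cxcl10 (0.11, 0.0880) did not pass. The normalized count of WT vehicle replicate 2 lay within the range of the Pear1-/- vehicle libraries for 7 of the 10 genes, and outside it for Cxcl5, Cxcl9 and Cxcl14. The neutrophil (16518) and epithelial (62092) marker sums of that library were also within the Pear1-/- vehicle ranges.

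**Figure D5:**
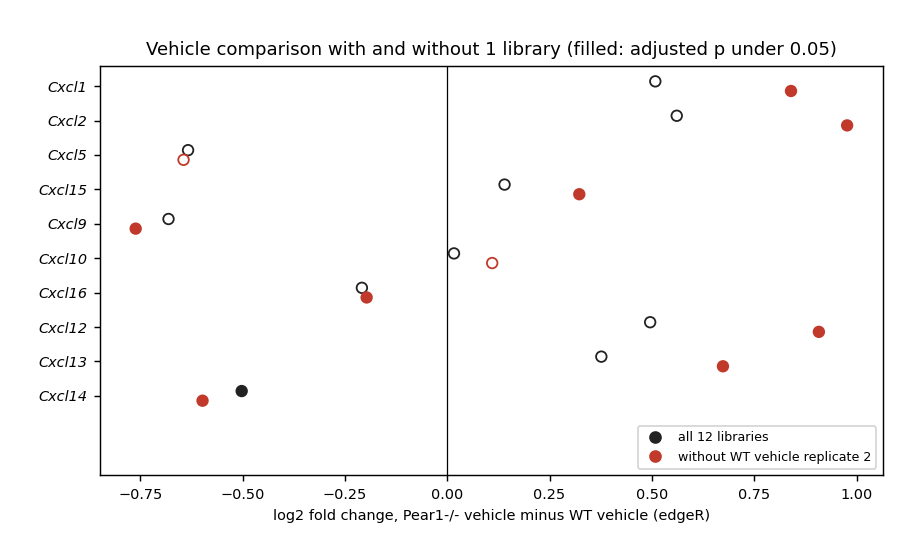
Log2 fold changes of the 10 CXC chemokines (y axis) for Pear1-/- vehicle minus WT vehicle (x axis, edgeR) in the fit of all 12 libraries and in the fit without WT vehicle replicate 2; filled points have an adjusted p under 0.05. Cxcl14 is filled in both fits, and Cxcl1, Cxcl2 and Cxcl12 move from between 0.50 and 0.56 to between 0.84 and 0.98.

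Receptors of these ligands, which leukocytes and endothelium carry, had group means between 10.9 (Ackr1 in WT vehicle) and 396 (Cxcr4 in WT bleo) normalized counts among those tested. Cxcr1 did not pass the filter on low counts, so 7 of 8 receptors were tested. In WT, 3 rose with bleo and 2 fell, and in Pear1-/- 1 rose and 4 fell, counts near the 68.0% (WT) and 62.3% (Pear1-/-) of all genes that were called. Cxcr2, the receptor of the ELR ligands, had a log2 fold change of -2.27 ± 0.48 in WT (adjusted p = 0.000610), which was -1.18 without WT vehicle replicate 2, and of -3.16 ± 0.44 in Pear1-/- (adjusted p = 1.86e-05). Cxcr4, the receptor of Cxcl12, rose in WT by 1.66 ± 0.18 (adjusted p = 1.12e-06), and was 0.95 ± 0.17 lower in Pear1-/- bleo than in WT bleo (adjusted p = 0.000257). Ackr3, which also binds Cxcl12 and removes it, was 0.49 ± 0.09 higher there (adjusted p = 0.000369). Cxcr6, the receptor of Cxcl16, was 1.12 ± 0.24 lower in Pear1-/- bleo (adjusted p = 0.00145), and Cxcr3, the receptor of Cxcl9 and Cxcl10, differed there by -0.38 ± 0.19 (adjusted p = 0.120), and by -0.39 (0.0143) without WT vehicle replicate 2. In that comparison 3 of the 7 receptors were lower and 1 higher, beside 23.9% and 22.1% of all genes. Without that library 5 were lower and 1 higher, beside 5295 and 4745 of the 20405 genes then tested.

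Lists of interferon signalling genes and of NF-kappaB genes and cytokine inducers were compared between the bleo groups, where 46.0% of all genes were called. Beside inducers of the chemokines, they hold genes induced by the same signals, such as Gbp5, and inhibitors of NF-kappaB signalling. The part of these genes in the chemokine values was not tested. Of 15 interferon signalling genes, 10 were lower and 0 higher at an adjusted p under 0.05 (edgeR), with a median log2 fold change of -0.31, and of 16 NF-kappaB genes and cytokine inducers, 7 were lower and 2 higher (12 and 2 without WT vehicle replicate 2), with a median of -0.22, beside -0.01 over all genes. Gbp5, an interferon-induced guanylate-binding protein, was 1.27 ± 0.19 lower (adjusted p = 6.90e-05) and Irf8, an interferon regulatory factor of myeloid cells, 0.80 ± 0.06 lower (1.08e-07) on the log2 scale. Tnf was 1.34 ± 0.12 lower (2.25e-07) and Rel, an NF-kappaB subunit, 1.19 ± 0.07 lower (1.98e-09). After bleo in WT, where 31.4% of all genes rose and 36.6% fell, 9 interferon signalling genes rose and 4 fell, among them Irf7 at 1.24 ± 0.14 (2.26e-06), and 8 of the NF-kappaB list rose and 3 fell, among them Il1b at 2.28 ± 0.06 (9.02e-14). In Pear1-/-, where 28.9% of all genes rose and 33.4% fell, 4 interferon signalling genes rose and 6 fell (median -0.043), and 4 of the NF-kappaB list rose and 9 fell (median -0.28). Ifng, which encodes interferon-gamma, the inducer for which Cxcl9 is best known, is named after its values were seen. It had 25.9 ± 8.81 normalized counts in WT vehicle and 10.6 ± 4.57 in WT bleo (adjusted p = 0.00486). In Pear1-/- it had 40.5 ± 3.25 after vehicle and 2.99 ± 0.403 after bleo (adjusted p = 1.74e-06). Ifng had 3 to 47 reads per library, and 3 to 4 in Pear1-/- bleo, at or near the floor of 3. Its part in the level of Cxcl9, which rose in both genotypes, was not tested. Adam10, which sheds Cxcl16, rose by 1.16 ± 0.10 in WT (5.71e-08) and also rose in Pear1-/- (adjusted p = 3.65e-07).

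Of the 8 lymphoid stroma and lymphotoxin genes, 7 were tested beside Cxcl13, and 4 rose and 2 fell with bleo in WT, and 1 rose and 4 fell in Pear1-/- (68.0% and 62.3% of all genes were called). Cr2, a complement receptor of B cells and follicular dendritic cells, was 1.35 ± 0.18 lower in Pear1-/- bleo than in WT bleo (adjusted p = 1.57e-05), while Cxcl13 did not differ beyond its spread. The 5 remaining CXC ligands, Cxcl3, Pf4, Ppbp, Cxcl11 and Cxcl17, were all called with bleo in both genotypes, 2 higher and 3 lower in each, beside the same shares of all genes. Cxcl3, another ELR ligand of Cxcr2, fell by 1.98 ± 0.29 in WT (adjusted p = 2.13e-05; -1.30 without WT vehicle replicate 2) and by 1.84 ± 0.26 in Pear1-/- (1.82e-05), as Cxcl1 did, and Pf4, a platelet and macrophage ligand, rose by 2.67 ± 0.12 and 1.55 ± 0.12 (2.72e-11 and 3.16e-08).

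Across the 12 libraries, which share their groups and depth, the genes whose log2 CPM ran most like a member's were described by Pearson's r among 10694 genes outside the members. Cxcl16 ran closest to H2-Eb1 (r = 0.999), an MHC class II gene of antigen-presenting cells, and Cxcl9 to Slc37a2 (0.995) and Tlr2 (0.992). Cxcl15 ran closest to Sftpc (0.995) and Slc34a2 (0.992), both genes of alveolar type 2 cells. Cxcl5, in contrast to Cxcl15, ran with Flnc (0.966) and Adamts15 (0.963). Cxcl10 ran with Fcer2a (0.992) and Ccl3 (0.989), and Cxcl1 with Fibin (0.994) and Cd200 (0.988). Cxcl2 ran with Cnp (0.991) and Kbtbd11 (0.989), Cxcl13 with Galk2 (0.989) and Naa50 (0.985), and Cxcl14 with Adarb1 (0.986) and Stard13 (0.985). The genes nearest to Cxcl12 were the immunoglobulin variable segments Igkv9-120 (0.993), Ighv14-2 (0.989) and Ighv8-12 (0.989), which B lineage cells express.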

How the data were processed

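RNA was measured in 12 libraries of CD140a+ (Pdgfra+) cells sorted from mouse lung, 3 for each of 4 groups taken from the sample labels. cDNA was made with a full-length, low-input kit and libraries with a transposase kit, and the authors aligned paired reads to GRCm38 (mm10) with HISAT2. The program that counted reads is not given in the sources used here. The authors deposited raw read counts per gene for each library and a table of normalized values, a signal on a linear scale that equals the deposited counts divided by 1 size factor per library. Every column of per-sample values was used (0 were not). Library totals were 6702948 to 10447101, and the floor of 3 counts covers counting error only, while SDs and standard errors include the spread between libraries.

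Counts were tested with edgeR 4.0.16 (R 4.3.3; TMM scaling, filterByExpr, quasi-likelihood F test) in a fit of all 12 libraries with 1 coefficient per group, and p-values were adjusted by Benjamini-Hochberg over 17418 genes. The study's own tool, limma (3.58.1, on log2 of the deposited normalized values plus a pseudocount of 1), DESeq2 1.42.0, other scalings, no filter, a replicate block, fits of the compared groups alone and leaving out each library were alternatives. The fit was tested on simulated data. Printed levels are the deposited normalized values, per kilobase of merged GENCODE M21 exons where genes are compared. Python 3.11.15, pandas 2.3.3 and matplotlib 3.10.9 made the summaries and figures.

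All 10 chemokines are named. Of the other lists, at most the 2 genes with the largest absolute log2 fold change per comparison were named, among called genes whose groups did not overlap and whose log2 CPM averaged 3 or more, together with receptors and defining markers. The 10 members and the lists were chosen with earlier results of these data known. The replicate numbers did not pair samples: the correlation of deviations between libraries of the same number ran from -0.28 to 0.17.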

Additional observations from a re-analysis of the deposited data

Results flagged for a closer look

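For 7 of the 10 chemokines the bleo effect differed between the genotypes by the interaction term (edgeR quasi-likelihood test, adjusted over all genes tested). As the log2 effect in Pear1-/- minus that in WT, the differences were 3.02 for Cxcl5 and 1.02 for Cxcl14. They were -1.03 for Cxcl2, -0.84 for Cxcl9, -1.32 for Cxcl10, -1.89 for Cxcl15 and -1.13 for Cxcl16. In this comparison 37.0% of all genes were called. Cxcl5 and Cxcl10 changed in opposite directions in the genotypes, each past the threshold in both. Dixon's test for a single outlying sample was not run on these groups of 3 libraries.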

How the results depend on the processing

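Of 940 alternative values for the log2 fold changes of the 10 chemokines, 875 kept their direction and their side of the threshold, 36 passed it newly, 23 no longer passed and 6 changed sign. Leaving out single libraries took Cxcl12 from -0.49 to 0.055 for bleo in WT and from -0.19 to 0.38 for the interaction, with the change of sign without WT vehicle replicate 2, and Cxcl13 from -0.037 to 0.037 between the bleo groups, negative without WT bleo replicate 1. Between the vehicle groups, Cxcl10 turned to -0.13 and Cxcl15 to -0.0015 with library totals as the scaling, and Cxcl10 ran from -0.00021 without WT vehicle replicate 3 to 0.11 without replicate 2. Library totals moved the median of all genes to -0.17 for bleo in WT, -0.15 between the vehicle groups and 0.15 for the interaction.

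The number of chemokines called between the vehicle groups (1) was 5 with library totals, 6 with no filter on low counts, 2 with DESeq2, and 0 with limma and in a fit of those groups alone. At an unadjusted p under 0.05, limma and that fit gave 7 and 5, and the share of all genes at that threshold was not counted. Leaving out single libraries gave 0 to 8 between the vehicle groups (5 to 8 at an unadjusted p under 0.05), 9 to 10 for bleo in WT, 7 to 10 for bleo in Pear1-/-, 7 to 9 between the bleo groups and 6 to 10 for the interaction. Each upper value but that for bleo in WT came without WT vehicle replicate 2. The cause was not tested. With the replicate block the vehicle comparison called 3, and the other counts were 9, 7, 8 and 7, as without it, but 4 of 12 libraries correlated best with their own number and the numbers share nothing else. Of 544 alternative counts over the other gene lists, 60 moved by more than 1.5 times. Cxcl5, with 6 to 47 reads per library, is the member whose precision depth limits most.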
